A study of Mus musculus with 21 samples.

Results

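Trunk notochord cells were compared with notochord progenitors (NotoPs) at embryonic day 8.5 (E8.5) in 1 RNA-seq library of each, 2 of the 21 samples of the series. Genes were taken into the comparison when either library held 5 FPKM or more (fragments per kilobase of transcript, scaled to the depth of the library), which 9278 of 23983 genes did. The genes described are the 1385 whose FPKM values, after 1 was added to each, differed 3-fold or more. Both libraries hold cells from pooled mouse embryos grown from F1G4 (C57BL/6N x SV129) embryonic stem cells of 1 triple reporter line, by tetraploid complementation according to the labels, and by diploid morula aggregation in the study's own description. The line carried T::H2B-Venus, Noto::H2B-mCherry and Foxa2::H2B-mTurquoise, each on a bacterial artificial chromosome (BAC), and the labels name no treatment other than the trypsin used to free the cells. NotoPs were sorted as Noto+/T+/Foxa2+ cells from caudal ends cut off at the somite border, and trunk notochord cells by the same 3 reporters from the trunk, both at Theiler stage 12. The trunk gate took cells high in the Foxa2 reporter. The comparison asks how notochord that has left the caudal end differs from the progenitors that still lie there.

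The notochord is the rod of axial mesoderm below the neural tube. It secretes Sonic hedgehog, which patterns the neural tube and somites, and builds a sheath of collagen and proteoglycan around cells that swell by taking up fluid. In the trunk it is laid down early, while its caudal part grows from progenitors in the node and tail bud, a region rich in Wnt and Fgf ligands and in T (brachyury). As the body axis grows, caudal cells turn on Hox genes of ever later paralogue groups.

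The trunk notochord library was made from 73 cells of 8 embryos with 4 to 11 somites and the NotoP library from 250 cells of 5 embryos with 9 to 11 somites, so region, cell number, gate and embryo stage differed together and cannot be told apart. After removal of duplicates the libraries held 1664032 and 3343606 mapped reads, at which 1 read on a transcript of 1 kb is worth 0.601 and 0.299 FPKM. Genes listed at 0 numbered 11739 in trunk notochord and 11385 in NotoPs. Of genes with 5 FPKM or more in the E8.5 NotoP, E9.5 NotoP, E9.5 trunk notochord and E9.5 mesoderm progenitor libraries alike, 21 were listed at 0 in E8.5 trunk notochord. With the 2 E8.5 libraries exchanged, the count was 1. Some of these are genes that every cell uses, so a 0 is given only as the listed value and no fold change against a 0 is stated. With 1 library on each side no test was possible, and no SD or p-value is given. In such bulk libraries, fewer cells of a type and less RNA per cell cannot be told apart.

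Of the 9278 genes, 708 (7.63%) were 3-fold or more higher in trunk notochord and 677 (7.30%) 3-fold or more lower, and the remaining 7893 differed less. The counts of every gene list below are to be read beside these shares. Genes of the sheath, carbonic anhydrases and a few guidance ligands and receptors were among those higher. Genes of the caudal growth zone, Hox genes and Notch genes were among those lower. The median log2 ratio over all genes tested was -7.13e-05, and the quartiles were -0.57 and 0.60. Most of the genes apart were of modest level, with a median of 11.4 FPKM in trunk notochord for those higher and of 14.5 FPKM in NotoPs for those lower. NotoPs were listed at 0 for 158 of the 708 genes (22.3%), and trunk notochord for 193 of the 677 (28.5%).

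**Figure D1:**
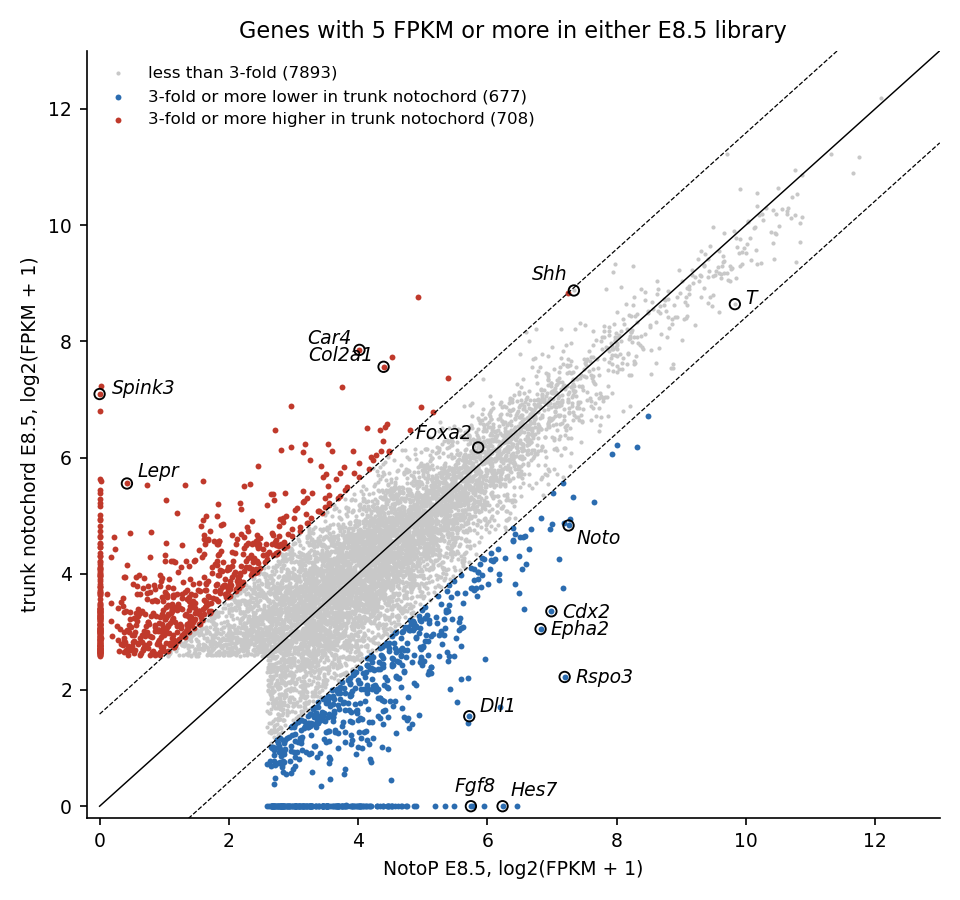
Each point is 1 of the 9278 genes, with its level in NotoPs on the x axis and in trunk notochord on the y axis, both as log2(FPKM + 1). The solid line marks equal levels and the dashed lines 3-fold. Red points are the 708 genes higher in trunk notochord and blue points the 677 lower, and the points along either axis are genes listed at 0 in 1 library.

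The 3 genes behind the sorting reporters did not move together. T, the T-box factor that notochord cells need, was at 398 FPKM in trunk notochord and 909 in NotoPs, a log2 ratio of -1.19. Noto, a homeobox factor of the node and notochord (GRCm38 chr6:85423886-85428877), was at 27.5 FPKM in trunk notochord and 152 in NotoPs, a log2 ratio of -2.43. Foxa2, a forkhead factor of notochord, floor plate and endoderm, was at 71.2 and 57.0 FPKM, a log2 ratio of 0.32. Transcripts of all 3 were thus present in both libraries, and Noto alone passed the 3-fold limit. The reporters are BAC transgenes with stable histone fusions, so the sort fixes the fluorescence and not the level of the endogenous transcript.

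Among 11 notochord transcription factors tested, 3 were higher, 1 lower and 7 neither. The chondrogenic factor Sox5 was at 10.6 FPKM in trunk notochord and 1.73 in NotoPs, a log2 ratio of 2.08. Its relatives Sox6 (21.6 and 9.75 FPKM, log2 ratio 1.07) and Sox9 (74.8 and 51.9 FPKM, log2 ratio 0.52) stayed under the limit. Hhex, a homeobox factor of anterior endoderm and anterior mesendoderm, was at 31.0 and 2.13 FPKM, and Zic2, a zinc finger factor of the early axial midline and neural plate, at 11.1 and 0.95. Mixl1, a homeobox factor of the primitive streak, was listed at 0 in trunk notochord and at 61.0 FPKM in NotoPs. Foxa1 differed little, at 44.2 and 41.7 FPKM. Mnx1 (9.06 and 24.6 FPKM) and Lmx1a (28.3 and 45.2) were lower in trunk notochord by less than 3-fold, and Rfx3 (35.1 and 19.6) was higher by less than that. The list therefore held factors on both sides, with a median log2 ratio of 0.52. At E9.5, 0 of the 3 factors higher were 3-fold or more higher again. Sox5 was at 13.7 and 4.13 FPKM (log2 ratio 1.52), Hhex at 1.34 and 0.36 and Zic2 at 0.80 and 0.87. Mixl1 was lower again (0 and 44.7 FPKM).

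The caudal progenitor genes lay almost entirely on the lower side. Of 33 tested, 0 were higher and 18 lower in trunk notochord, 7 of them listed at 0 there, against 7.63% and 7.30% of all genes tested. Their median log2 ratio was -1.99. Cdx2, the caudal homeobox factor that promotes tail outgrowth, was at 9.23 FPKM in trunk notochord and 126 in NotoPs. Its relatives Cdx1 and Cdx4 were at 1.26 and 0 FPKM in trunk notochord and at 17.8 and 26.0 in NotoPs. The ligands that sustain the caudal zone were low as well. Fgf8 was listed at 0 against 52.6 FPKM in NotoPs, Fgf17 at 0 against 6.15, and Wnt3a at 0 against 15.4. Rspo3, a secreted enhancer of Wnt signalling, was at 3.67 FPKM against 146, a log2 ratio of -4.97.

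Genes known to respond to Wnt and Fgf signals were spread over a wider range. Lef1, a nuclear effector of Wnt signalling, was at 15.9 FPKM in trunk notochord and 92.2 in NotoPs. Sp5 (18.9 and 89.0 FPKM), Sp8 (1.96 and 29.7) and the Wnt feedback inhibitor Nkd1 (18.4 and 76.1) were also 3-fold or more lower, and the inhibitor Notum was listed at 0 against 16.3 FPKM. Axin2, another feedback inhibitor, was lower by less than 3-fold (9.30 and 24.4 FPKM, log2 ratio -1.30). Of the Fgf targets, Etv4 (1.88 and 21.0 FPKM), Etv5 (7.48 and 28.9) and Spry4 (0.48 and 6.78) passed the limit, and Dusp6 (14.2 and 39.8) and Spry2 (9.48 and 21.7) did not. The mesoderm factors Tbx6 and Msgn1, which drive presomitic fate, were listed at 0 against 44.0 and 20.0 FPKM, and Evx1, a homeobox factor of the streak, was at 0.76 against 10.8. Wnt5a, Wnt5b, Lin28a, Lin28b, Sall1, Sall4, Gbx2 and Dnmt3b differed by less than 3-fold. Id3 was the member that lay furthest the other way (90.0 and 41.6 FPKM, log2 ratio 1.10).

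In all, 193 genes with 5 FPKM or more in NotoPs were listed at 0 in trunk notochord, which is 2.42% of the 7980 genes at that level in NotoPs. They were mostly low genes, since 107 (55.4%) were under 10 FPKM in NotoPs and 22 reached 20 FPKM. The trunk library held the fewer reads, so a gene near 5 FPKM was covered by few of them. The 12 with the highest NotoP level were Hoxaas3, a noncoding RNA of the HoxA cluster (87.0 FPKM), the somite clock repressor Hes7 (74.3 FPKM), Mixl1, the pseudogene Atp6v0c-ps2 (54.0 FPKM), Fgf8, Tbx6, the transcriptional coregulator Cited1 (39.6 FPKM), the respiratory chain subunit Ndufb4 (35.3 FPKM), the cytochrome P450 gene Cyp2d26 (28.1 FPKM), Cdx4, the mitochondrial reductase Mecr (24.7 FPKM) and Hoxd9 (24.2 FPKM). In the independent E9.5 trunk notochord library 9 of these 12 were again listed at 0. Ndufb4 and Atp6v0c-ps2 were at 15.7 and 28.3 FPKM there and Hoxd9 at 3.40. Of the 9 genes at 0, Cyp2d26 and Mecr were also low in E9.5 NotoPs, at 3.91 and 3.37 FPKM. Over all 193 genes, 97 (50.3%) were listed at 0 at E9.5 too, against 333 (4.17%) of the 7980 genes, and 46 (23.8%) reached 5 FPKM in E9.5 trunk notochord. Those at 0 in E9.5 trunk notochord with 5 FPKM or more in E9.5 NotoPs numbered 32 (16.6%), so most of the 97 were under 5 FPKM in E9.5 NotoPs as well. The 7980 genes were not matched to the 193 in level. A 0 in E9.5 trunk notochord has the same limit as one at E8.5. Genes at 0 there, but at 5 FPKM or more in E8.5 trunk notochord, both NotoP libraries and E9.5 mesoderm progenitors, numbered 66.

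Hox genes were also mostly lower in trunk notochord. Of 20 tested, 0 were higher and 14 lower, and their median log2 ratio was -2.17. The genes below the limit were 5 of 10 of paralogue groups 1 to 4, 6 of 7 of groups 5 to 8 and 3 of 3 of groups 9 to 13. The last 3 were all of group 9, and a trend along the clusters was not tested. Of the genes lower, 4 of groups 5 to 8 and 1 of group 9 were listed at 0 in trunk notochord. With 5 FPKM added in place of 1, 2 of the 10, 3 of the 7 and 1 of the 3 were lower. Hoxa2 was on the other side, at 8.67 FPKM in trunk notochord and 3.72 in NotoPs. Hoxb2, of the same paralogue group, was at 6.75 FPKM in trunk notochord and 39.4 in NotoPs, so genes of 1 paralogue group did not share a direction. Hoxb1 was at 7.41 and 47.2 FPKM, Hoxb3 at 7.79 and 27.3, Hoxd1 at 1.18 and 7.09 and Hoxd4 at 1.72 and 14.0. Hoxa5 was just below the limit (7.03 and 23.1 FPKM, log2 ratio -1.59), and it left the called genes when libraries were rescaled without their most abundant genes.

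The central and posterior Hox genes were close to the floor in trunk notochord. Hoxa7, Hoxb7, Hoxc8 and Hoxd8 were listed at 0 there and at 7.25, 7.43, 12.7 and 14.3 FPKM in NotoPs. Hoxb8 was at 1.66 and 20.0 FPKM, Hoxa9 at 0.72 and 6.72, Hoxb9 at 3.26 and 18.2, and Hoxd9 at 0 and 24.2. Genes of group 10 and beyond were under 5 FPKM in both libraries. At E9.5, 8 of the 14 genes were again 3-fold or more lower, while Hoxb2, Hoxb8 and Hoxa5 had log2 ratios of 0.05, 0.15 and -0.13 there.

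**Figure D2:**
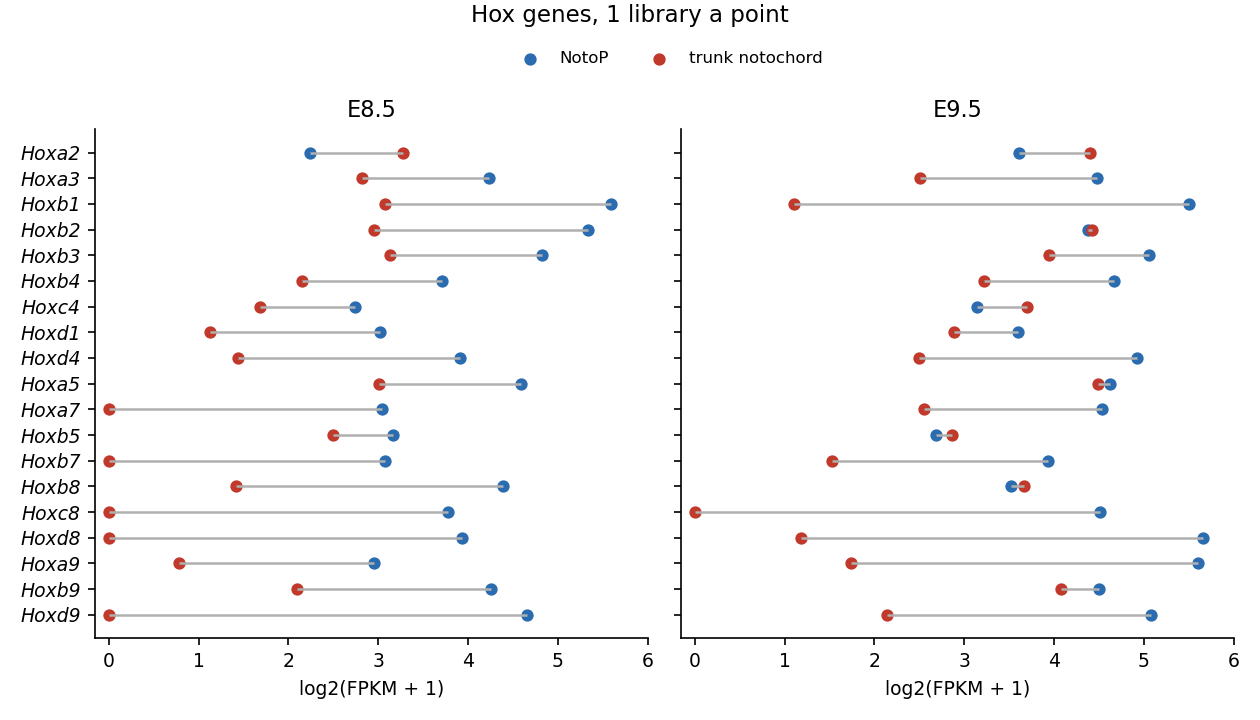
Levels of 19 Hox genes, as log2(FPKM + 1) on the x axis, in trunk notochord (red) and NotoPs (blue) at E8.5 on the left and E9.5 on the right, with 1 library a point. Hoxa2 lies higher in trunk notochord in both panels, and Hoxc8, Hoxd8, Hoxa9 and Hoxd9 lie well to the left of NotoPs in both.

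Notch genes were also one-sided, with 0 higher and 7 lower of 12 tested and a median log2 ratio of -1.96. Of the receptors, Notch1 was at 12.5 FPKM in trunk notochord and 52.7 in NotoPs, while Notch2 was at 53.6 and 25.9 (log2 ratio 1.02) and Notch3 at 4.98 and 14.8 (log2 ratio -1.40). Of the ligands, Dll1 was at 1.92 and 51.7 FPKM and Dll3 at 5.08 and 32.7, and Jag1 (8.81 and 15.1) stayed under the limit. The target genes Hes1 (24.3 and 94.9 FPKM), Hey1 (4.99 and 43.6) and Nrarp (1.71 and 51.3) were lower as well as Hes7. Only Notch2 and the atypical ligand Dlk1 (9.46 and 3.15 FPKM) were higher among the 12, both by less than 3-fold. Of the 7 genes lower at E8.5, 6 were 3-fold or more lower at E9.5, Notch1 being the exception with a log2 ratio of -0.32.

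Genes of the fibrillar sheath and cartilage matrix lay mostly on the other side. Of 27 tested, 9 were higher, 1 lower and 17 neither, with a median log2 ratio of 0.73. Col2a1, the main fibrillar collagen of cartilage and of the notochord sheath, was at 188 FPKM in trunk notochord and 20.0 in NotoPs, a log2 ratio of 3.17. The collagens that assemble with it were low in NotoPs, with Col11a1 at 32.0 and 1.3 FPKM, Col11a2 at 23.9 and 0.17, Col9a1 at 37.6 and 5.48 and Col9a3 at 5.41 and 0. Acan, the large proteoglycan of cartilage, was at 10.5 and 0.26 FPKM, and its link protein Hapln1 at 56.6 and 4.48. Col5a1 (45.8 and 4.04 FPKM) and Col1a2 (29.5 and 2.02) completed the genes higher. Comp, a cartilage matrix glycoprotein, went the other way, listed at 0 against 15.2 FPKM in NotoPs.

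The enzymes and chaperones that process collagen were among the 17 genes that differed less. Serpinh1, the collagen chaperone, was at 209 and 140 FPKM, Plod2 at 105 and 80.9 and P4ha1 at 64.7 and 71.1. The proteoglycan Vcan was near equal at 106 and 100.2 FPKM. All 9 genes higher were 3-fold or more higher at E9.5 as well, and Comp was again lower (0 and 4.51 FPKM).

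Basement membrane genes and integrins showed no shift as a group (4 higher, 1 lower and 22 neither of 27, median log2 ratio -0.09). Sparc, a collagen-binding glycoprotein, was at 91.6 FPKM in trunk notochord and 20.4 in NotoPs, Col18a1 at 63.7 and 17.4, Col4a5 at 16.6 and 3.13 and Fras1 at 21.7 and 5.65. Lama1, the laminin chain of the early embryo, was lower, at 4.16 and 19.3 FPKM. Fibronectin, Fn1, was at 185 and 468 FPKM (log2 ratio -1.33). Integrin beta 1, which most integrins share, was at 91.3 and 106 FPKM.

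Of 17 genes of caveolae, vacuoles and ion transport tested, 6 were higher, 1 lower and 10 neither, with a median log2 ratio of 1.34. Carbonic anhydrases, which interconvert carbon dioxide and bicarbonate, stood out. Car3 was at 118 FPKM in trunk notochord and 6.78 in NotoPs, Car4 at 230 and 15.2 and Car2 at 40.5 and 5.27, whereas Car14 was at 63.6 and 72.0. The sodium pump subunit Atp1b1 (25.5 and 0.73 FPKM), the chloride channel protein Clic6 (19.4 and 0) and the sulphate transporter Slc26a2 (5.69 and 1.22) were also higher, the last just past the limit. The amino acid transporter Slc38a8 was lower (2.52 and 20.1 FPKM). The caveolar coat gene Cav1 was not higher (4.19 and 7.91 FPKM), and the lysosomal membrane genes Lamp1 (61.4 and 76.1) and Lamp2 (72.3 and 58.2) were near equal. The 3 carbonic anhydrases were 3-fold or more higher at E9.5, and Atp1b1 was not (4.59 and 6.96 FPKM).

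In the list of adhesion genes, 4 of 26 were higher, 2 lower and 20 neither, with a median log2 ratio of 0.60. Over all genes tested, 7.63% were higher and 7.30% lower. At E9.5 the list median was -0.02, and 2 of the genes higher and 1 of those lower were apart again. With 5 FPKM added in place of 1 at E8.5, 1 gene was higher and 0 lower. The simple epithelial keratins were abundant in both libraries, with Krt8 at 641 FPKM in trunk notochord and 250 in NotoPs and Krt18 at 627 and 304, log2 ratios of 1.35 and 1.04. Krt19 was at 285 and 96.1 FPKM, a log2 ratio of 1.56, just under the limit. The cadherin Cdh6 was at 29.2 and 0 FPKM, and the claudins Cldn4 and Cldn10, components of tight junctions, at 8.5 and 5.25 FPKM in trunk notochord and 1.04 and 0 in NotoPs. The epithelial splicing regulator Esrp1 was at 11.6 and 2.85 FPKM. The mesenchymal cadherin Cdh11 (8.35 and 30.0 FPKM) and Snai1, a repressor of epithelial genes (4.16 and 17.2), were lower. The main cadherins did not pass the limit, with Cdh1 at 37.4 and 29.5 FPKM and Cdh2 at 130 and 225.

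Guidance genes included 5 higher, 1 lower and 27 neither of 33, with a median log2 ratio of 0.54. Slit1, a repulsive ligand, was at 20.6 FPKM in trunk notochord and 0.18 in NotoPs, and its receptor gene Robo2 at 6.01 and 0. Slit2 was abundant in both (175 and 119 FPKM). The semaphorin receptors Nrp1 (24.5 and 2.07 FPKM) and Nrp2 (6.63 and 0.14) and the ligand Sema3f (17.5 and 4.17) were higher. Epha2, a receptor tyrosine kinase known from the node, was lower, at 7.27 and 112 FPKM, a log2 ratio of -3.78. Of these 6 genes, all but Sema3f (11.9 and 11.2 FPKM) were apart in the same direction at E9.5.

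**Figure D3:**
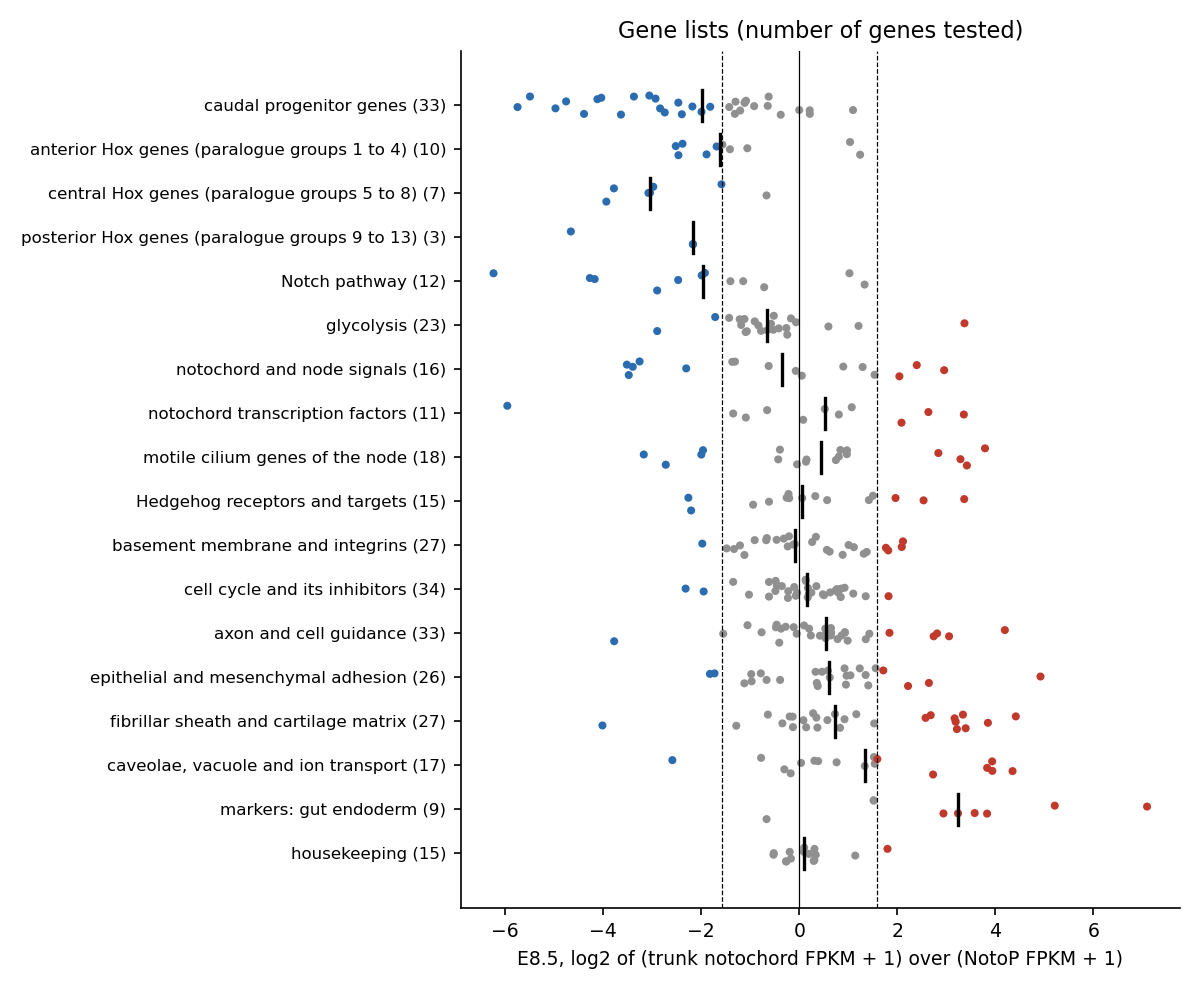
The log2 ratio of trunk notochord over NotoPs at E8.5 for each gene tested in 18 gene lists, with list sizes in brackets. Points are genes (red higher, blue lower, grey less than 3-fold), black bars are list medians and dashed lines mark 3-fold. Caudal progenitor, Hox and Notch lists lie to the left, and sheath, ion transport and gut endoderm genes reach far to the right.

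The secreted signals of node and notochord divided. Of 16 tested, 3 were higher, 5 lower and 8 neither, with a median log2 ratio of -0.35. Shh was at 468 FPKM in trunk notochord and 161 in NotoPs, a log2 ratio of 1.54, under the limit. The BMP antagonist Chrd was lower (6.72 and 37.1 FPKM), and the antagonist Nog was near equal (77.8 and 75.1). Nodal, the ligand that sets left and right, and its antagonist Dand5 were listed at 0 in trunk notochord and at 8.56 and 9.53 FPKM in NotoPs. The Wnt antagonist Dkk1 was at 0.98 and 21.1 FPKM, and Fgf15 was listed at 0 against 10.4. Higher were the BMP and Wnt modulator Sostdc1 (27.6 and 2.69 FPKM), the growth factor Pdgfa (23.8 and 3.71) and Cer1, a secreted antagonist of Nodal and BMP (7.58 and 1.08). Fst, Gdf1, Bmp7, Vegfa, Tgfb2 and Cyp26a1 differed by less than 3-fold. At E9.5, Sostdc1 was again higher (55.7 and 0.37 FPKM), Pdgfa was not (11.7 and 17.7), and Cer1 was listed at 0 in both libraries.

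In the Hedgehog list, 3 of 15 genes were higher, 2 lower and 10 neither, with a median log2 ratio of 0.06. The pathway readouts Ptch1 (189 and 150.5 FPKM) and Gli1 (19.2 and 23.2) were close in both. The coreceptor Cdon was at 41.2 and 6.27 FPKM, while the related coreceptor Boc was at 0.50 and 6.18, so the pair lay on opposite sides. The neural tube factors Nkx6-1 (14.7 and 0.53 FPKM) and Nkx2-9 (8.76 and 1.50) were higher, and the growth regulator Mycn was lower (6.78 and 34.9). Of 14 genes of the BMP and TGF-beta response, the matrix growth regulator Ctgf was higher (22.0 and 3.93 FPKM) and Tgfb1 lower (1.05 and 5.85), with a median log2 ratio of 0.74. Id2 lay just under the limit (55.3 and 17.8 FPKM, log2 ratio 1.58).

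Retinoic acid genes were mixed, with 3 higher and 2 lower of 12 and a median log2 ratio of -0.46. Rarb, a receptor gene that retinoic acid itself induces, was at 14.5 FPKM in trunk notochord and 0.31 in NotoPs, the reductase Dhrs3 at 22.8 and 2.2 and the plasma retinol carrier Rbp4 at 47.3 and 2.03. The uptake receptor Stra6 was lower (8.22 and 33.4 FPKM). Aldh1a2, the synthesizing enzyme, was near equal (35.0 and 42.9 FPKM). At E9.5, Rarb was at 3.54 and 0.24 FPKM and Dhrs3 at 1.76 and 1.91, so Dhrs3 was no longer apart.

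The motile cilium genes went both ways. Of 18 tested, 4 were higher and 4 lower, against 7.63% and 7.30% of all genes tested. Dynlrb2, Fam183b, Pifo and Tekt1 were higher, between 8.76 and 12.8 FPKM in trunk notochord and at most 0.67 FPKM in NotoPs. Rsph1, Rsph9, Capsl and Dnaaf3 were lower, between 5.60 and 12.0 FPKM in NotoPs. Pifo alone of these 8 was apart in the same direction at E9.5 (7.85 and 0 FPKM). Few genes passed the limit in the cell cycle, glycolysis and housekeeping lists. Of 34 cell cycle genes, Ccne1 was higher (31.5 and 8.20 FPKM) and Aurkb (5.62 and 24.6) and Cdkn2d (1.73 and 12.6) lower, with a median log2 ratio of 0.15, and none of the 3 kept its side at 3-fold at E9.5. The cell cycle inhibitor Cdkn1c was at 256 and 99.5 FPKM (log2 ratio 1.35). Glycolysis genes had a median log2 ratio of -0.65 over 23 genes at E8.5 and of -0.76 at E9.5, but 1 passed the limit upward (Eno3, 35.7 and 2.55 FPKM) and 2 downward (Pfkp, 4.36 and 16.6, and Eno2, 0 and 6.45). The most abundant of them, Ldha, was at 839 and 1822 FPKM. Of 15 housekeeping genes, Pmm2 alone passed the limit (9.76 and 2.09 FPKM), with a median of 0.10, and of 10 handling stress genes Atf3 was higher (5.57 and 0) and Ddit3 lower (0 and 6.87).

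Markers of other tissues were examined in the same way. Blood had 0 of 12 markers tested, with all globin genes at 0 in both libraries and summed levels of 2.27 and 3.61 FPKM. Of 10 endothelial markers 1 was tested (Egfl7, 3.78 and 12.2 FPKM), and Pecam1 and Cdh5 were at 0 in both. Gut endoderm markers stood out. Of 16, 9 were tested and 6 were higher, with summed levels of 266 FPKM in trunk notochord and 56.0 in NotoPs at E8.5 and of 170 and 26.7 at E9.5. Spink3, a protease inhibitor, was at 136 FPKM in trunk notochord, the thyroid hormone carrier Ttr at 36.0, the peptide hormone gene Pyy at 13.2, Gata4 at 8.43 and the apolipoprotein gene Apoa1 at 6.68, and all 5 were listed at 0 in NotoPs. Gata6 was at 14.5 and 0.30 FPKM. Sox17, a defining endoderm factor, was listed at 0 in trunk notochord and at 3.58 FPKM in NotoPs, and Apom, Trap1a, Rhox5 and Nkx2-1 were at 0 in both. Ttr (23.4 and 0 FPKM) and Apoa1 (12.0 and 0) were apart again at E9.5, whereas Spink3, Pyy and Gata4 were listed at 0 in both E9.5 libraries. The part of other cells in these results, and in those for Hhex and Foxa2 that endoderm also expresses, was not tested.

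Somite markers went both ways, with Tcf15 (11.8 and 1.01 FPKM) and Pax3 (9.90 and 0.28) higher, and Tbx6, Msgn1 and Dll1 lower, of 9 tested, and Meox2, Pax1, Pax9, Ripply1 and Myf5 at 0 in both. Their summed levels were 110 FPKM in trunk notochord and 203 in NotoPs. Of 14 neural tube markers, 5 were tested and Nkx6-1 and Irx3 (64.6 and 18.5 FPKM) were higher, while Olig2, Dbx1, Zic1 and Pax7 were at 0 in both, with sums of 121 and 61.0 FPKM. Of the 10 surface ectoderm markers 3 were tested, and Grhl3 (0 and 6.45 FPKM) and Wnt6 (0 and 14.6) were lower. Their sums were 19.7 and 32.7 FPKM. Of the 12 heart and lateral mesoderm markers 2 were tested, and Gata4 was the 1 that was higher, with sums of 21.6 and 12.5 FPKM. Their part in the result was not tested either.

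The 12 genes with the largest ratios were Rpl34-ps1, Spink3, Atp6v0c, Ndufs5, Apoo-ps, Ttr, Lepr, Cacng4, Rab26os, Cdh6, Rhox8 and Spp1. Several have near-identical copies between which reads may have been divided. Atp6v0c, a proton pump subunit, was at 111 FPKM in trunk notochord and 0.0028 in NotoPs, and its pseudogene Atp6v0c-ps2 at 0 and 54.0, so their sum was 111 and 54.0, less than 3-fold apart. Rpl34 and Rpl34-ps1 together were at 333 and 457 FPKM, although the pseudogene alone was at 148 and 0.020. Apoo-ps (40.9 and 0 FPKM) and Apoo summed to 40.9 and 5.43 FPKM at E8.5 and to 52.8 and 8.92 at E9.5, so that pair stayed 3-fold or more apart. No copies were summed for Ndufs5 (47.5 and 0.012 FPKM) or for Ndufb4 on the other side.

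Copies were not looked for among the other genes at the top. Lepr, the leptin receptor gene, was at 46.0 FPKM in trunk notochord and 0.34 in NotoPs, a log2 ratio of 5.13. Spp1, the matrix phosphoprotein osteopontin, was at 44.9 and 0.66 FPKM, a log2 ratio of 4.79. Cacng4, a calcium channel subunit gene, was at 31.3 and 0 FPKM, the noncoding RNA Rab26os at 29.8 and 0 and the homeobox gene Rhox8 at 27.4 and 0. Lepr, Spp1, Ttr and Cacng4 were 3-fold or more higher at E9.5 too (Lepr 116 and 0 FPKM, Spp1 46.9 and 0.45), as were Cdh6 and Apoo-ps, while Rhox8 (11.8 and 14.4) and Rab26os (0 and 4.37) were not. Among the most abundant genes higher, chosen after their values were seen, were the imprinted gene Peg3 (211 and 21.9 FPKM) with the overlapping Peg3os (432 and 29.4), the adaptor subunit gene Ap1s2 (147 and 12.4) and the transglutaminase gene Tgm2 (88.0 and 5.58). The reads were aligned with a strand setting, but whether the FPKM estimates keep Peg3 and Peg3os apart was not tested. On the other side stood Bnip3, a mitochondrial stress gene (104 and 358 FPKM), Ptk7, a planar polarity receptor gene (36.7 and 201), and Ifitm1 (12.5 and 142), also chosen after their values were seen.

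The E9.5 libraries of trunk notochord and NotoPs share no sample with those at E8.5. They came from embryos with 24 to 32 somites for trunk notochord (90 cells) and 24 to 28 for NotoPs (250 cells). By the study's list of libraries, the E9.5 NotoP gate took cells high in the Foxa2 reporter, as both trunk gates did. The E8.5 NotoP gate took Foxa2+ cells. The E9.5 libraries are thus another stage with another NotoP gate, and not a replicate. Of the 708 genes higher at E8.5, 149 (21.0%) were 3-fold or more higher at E9.5, against 4.97% of all genes tested, and 65 (9.18%) were 3-fold or more lower, against 8.45%. Of the 677 genes lower at E8.5, 184 (27.2%) were 3-fold or more lower at E9.5, against 8.45% of all, and 41 (6.06%) were 3-fold or more higher, against 4.97%. Most genes apart at E8.5 were thus not apart by 3-fold at the later stage.

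Recurrence differed with the level of the gene. Among genes higher at E8.5 it was 17.8% for the 315 whose larger E8.5 value was 5 to 10 FPKM and 42.9% for the 42 at 50 FPKM or more, against 8.66% and 2.45% of all genes at those levels. Among genes lower it was 17.6% for the 216 at 5 to 10 FPKM and 41.4% for the 70 at 50 FPKM or more, against 10.7% and 5.09%. Among genes higher, 5 FPKM in either E9.5 library was reached by 41.9% at 5 to 10 FPKM and 97.6% at 50 FPKM or more. For genes lower these shares were 49.1% and 100%. Of genes with 5 FPKM or more at E9.5, 137 of 433 higher (31.6%) and 158 of 506 lower (31.2%) recurred. Over all such genes tested the shares were 5.21% and 7.98%. Recurrence also differed between the gene lists. Of the 18 caudal progenitor genes lower at E8.5, 15 were lower again, the exceptions being Cdx1 (0 and 1.47 FPKM at E9.5), Sp5 (15.9 and 44.8) and Nkd1 (22.6 and 53.1). All 9 sheath genes and 3 of 6 genes of caveolae, vacuoles and ion transport were higher again, as were 2 of 6 gut endoderm markers and 1 of 4 cilium genes. Noto was lower at both stages (20.8 and 164 FPKM at E9.5).

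**Figure D4:**
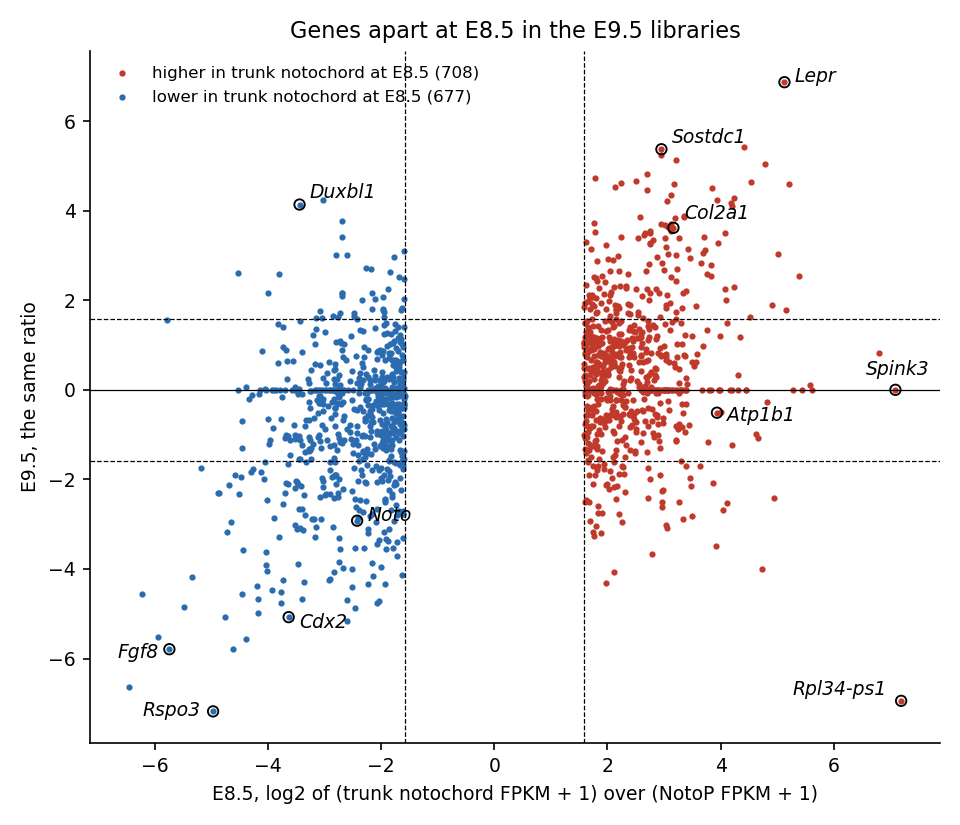
The E8.5 log2 ratio of trunk notochord over NotoPs on the x axis and the E9.5 ratio on the y axis for the 708 genes higher (red) and the 677 lower (blue) at E8.5, with dashed lines at 3-fold. Genes beyond the dashed line on the same side include Lepr, Col2a1, Sostdc1, Rspo3, Fgf8, Cdx2 and Noto, and Rpl34-ps1 and Duxbl1 lie on the opposite side.

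**Figure D5:**
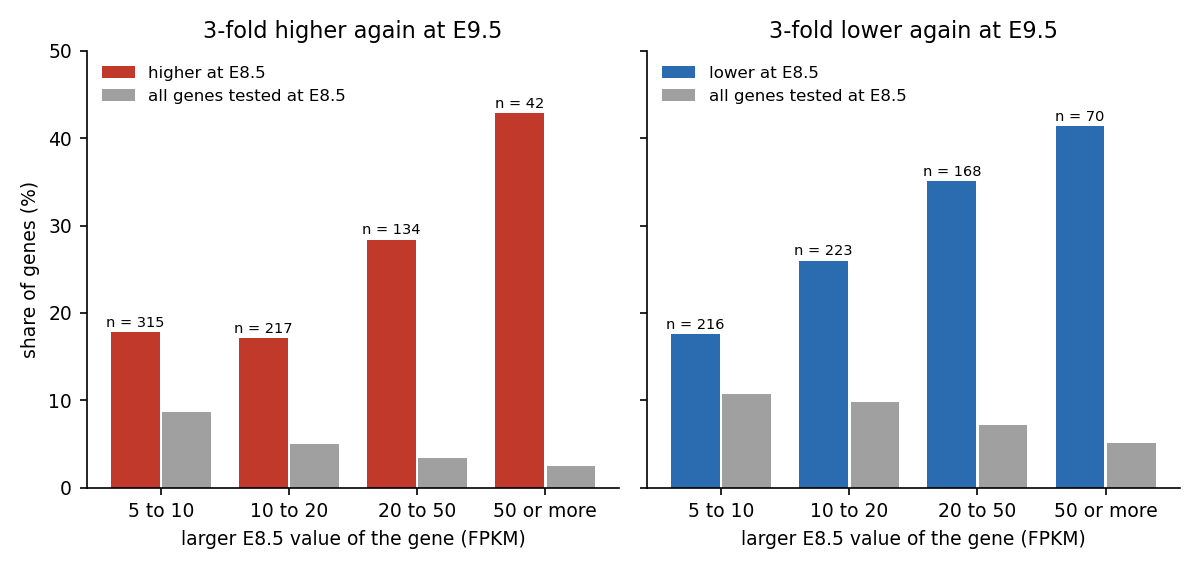
Share of genes, in percent, that were 3-fold or more apart in the same direction at E9.5, by the larger of the gene's 2 E8.5 values in FPKM. Coloured bars are the genes higher (left) or lower (right) at E8.5, with their number, and grey bars are all genes tested at that level. The coloured bars reach 42.9% and 41.4% at 50 FPKM or more.

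Mesoderm progenitors (MPs), sorted from caudal ends as cells positive for the T reporter and negative for the Noto and Foxa2 reporters, give the level of these genes in other caudal cells. The E8.5 MP library came from 24 cells, so the E9.5 one (250 cells) was used. Of the 677 genes lower in trunk notochord, 400 (59.1%) reached 5 FPKM in E9.5 MPs, against 78.7% of all genes tested, and of the 708 higher 231 (32.6%) did. The E9.5 NotoP and MP libraries took no part in choosing the genes. Between them, 79 (11.7%) of the genes lower were 3-fold or more higher in NotoPs and 24 (3.55%) higher in MPs, against 4.56% and 1.38% of all tested. Of the genes higher in trunk notochord, 55 (7.77%) were 3-fold or more higher in NotoPs and 35 (4.94%) higher in MPs. Rspo3 (155 FPKM in E9.5 MPs), Msgn1 (123), Cdx4 (107), Tbx6 (67.2) and Cdx2 (52.7) were shared with MPs, whereas Noto was listed at 0 there, and Mixl1 (4.00 FPKM) and Epha2 (4.65) were low.

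Binding of T and Foxa2 was available from ChIP-seq of notochord progenitor-like cultures, in which T-driven rtTA and doxycycline switch on Foxa2, with 1 library for each factor and cells not sorted. The lists hold 6875 T peaks and 22684 Foxa2 peaks, and 9222 of the 9278 genes tested had a start in the GENCODE annotation. A T summit lay within 5 kb of a start for 8.87% of all genes tested, 6.74% of those higher and 10.4% of those lower, and within 50 kb for 33.1%, 31.9% and 38.3%. For genes lower at both stages the shares were 16.6% and 56.4% of 181, and for genes higher at both stages 8.90% and 35.6% of 146. Foxa2 summits lay within 5 kb for 12.4% of all, 13.2% of those higher and 13.2% of those lower, and within 50 kb for 60.5%, 61.3% and 62.6%. For genes higher at both stages the Foxa2 shares were 19.2% and 69.2%, and for genes lower at both stages 15.5% and 68.5%. Of the 18 caudal progenitor genes lower, 15 (83.3%) had a T summit within 50 kb, against 24 of all 33 tested in that list (72.7%). Of the 9 sheath genes higher 5 (55.6%) did, against 14 of all 27 tested (51.9%), so the share was near that of the list. Col2a1 had none within that distance.

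The DNA under the T peak with its summit nearest to a start is shown for 3 genes lower and 3 genes higher at both stages. A T summit lay within 5 kb for 30 of the genes lower and 13 of those higher at both stages. Of these, 27 and 12 were candidates, and the others were left out of the choice. The genes shown were picked from the candidates by the fold enrichment of that nearest peak, and stronger peaks further from the start were not looked for. Each line gives the 101 bases of GRCm38 centred on the summit, plus strand, with the T-box core GTGTGA, which reads TCACAC on the other strand, in capitals. Msgn1 is at chr12:11209118-11209218, 196 bases upstream of its start. Rab8b, a vesicle traffic GTPase gene, is at chr9:66920806-66920906, 1169 bases upstream, and Hes7 at chr11:69119015-69119115, 1339 bases upstream, all 3 between genes. Pkdcc, a secreted kinase gene of skeletal development, is at chr17:83214253-83214353, 989 bases upstream and between genes. Apoa1 is at chr9:46230078-46230178, in its coding exon 1548 bases downstream of its start, and Cdon at chr9:35424673-35424773, in an intron 3165 bases downstream.
Msgn1: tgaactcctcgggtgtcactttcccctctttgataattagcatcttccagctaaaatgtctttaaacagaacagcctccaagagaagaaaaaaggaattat
Rab8b: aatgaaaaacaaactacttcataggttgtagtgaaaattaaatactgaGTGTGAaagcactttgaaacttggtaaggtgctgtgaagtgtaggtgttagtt
Hes7: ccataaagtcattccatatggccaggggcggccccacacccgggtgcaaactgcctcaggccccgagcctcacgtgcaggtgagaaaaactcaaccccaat
Pkdcc: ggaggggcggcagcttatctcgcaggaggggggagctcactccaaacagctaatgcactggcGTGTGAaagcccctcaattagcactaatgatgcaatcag
Apoa1: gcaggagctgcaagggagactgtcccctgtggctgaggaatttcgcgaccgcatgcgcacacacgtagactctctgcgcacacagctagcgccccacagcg
Cdon: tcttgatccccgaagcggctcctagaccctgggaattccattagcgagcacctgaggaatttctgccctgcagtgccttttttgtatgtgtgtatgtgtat

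The fold enrichment at these summits was 23.4 for Msgn1, 21.7 for Rab8b, 18.3 for Hes7, 22.2 for Pkdcc, 19.8 for Apoa1 and 16.1 for Cdon. The genes were picked by this enrichment, so the strengths say nothing of the directions. In embryonic cells, Pkdcc was at 25.1 FPKM in trunk notochord and 0.38 in NotoPs, and Rab8b at 4.63 and 41.1. The core letters were found in the Rab8b and Pkdcc windows, once each, and not in the other 4. They were in 23.4% of all such windows of T peaks and in 6.20% of windows 10 kb downstream. The half-site string AGGTGT, which reads ACACCT on the other strand and overlaps the core by 4 letters, was in 11.4% and 5.21% of them, and among the 6 windows in that of Rab8b. The forkhead string TGTTTAC, which reads GTAAACA on the other strand, was in 9.74% of Foxa2 peak windows and 1.61% of those 10 kb downstream.

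The limit of 3-fold cuts through a continuous range. Just inside it on the higher side were Slc30a4 (7.83 and 1.94 FPKM), the binding protein gene Igfbp5 (455 and 151) and Rcan2 (12.0 and 3.34), and just outside Polr3gl (8.73 and 2.25), Id2 (55.3 and 17.8) and Palmd (5.51 and 1.18). On the lower side, just inside were Hoxa5, Cdk2ap2 (4.83 and 16.6 FPKM) and Zscan26 (8.27 and 26.9), and just outside Rufy3 (5.48 and 18.4), Alkbh1 (3.39 and 12.1) and Rsph3a (2.24 and 8.66). At E9.5, Igfbp5 (log2 ratio 1.86) and Id2 (2.52) were past the limit on the same side, and the other 10 were not.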

How the data were processed

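Of the 21 samples, 5 of the 6 embryonic RNA-seq libraries (not E8.5 MP) and 2 ChIP-seq libraries (T and Foxa2, NotoP-like cultures) were used for values, each condition having 1 library. The deposited FPKM values are from Cufflinks 2.2.1, corrected for sequence bias and multiply mapped reads. Before that, the authors had trimmed the RNA-seq reads, mapped them by strand on mm10 (TopHat2 2.1.1, Bowtie 1.2.2) and removed duplicates by unique molecular identifiers. For ChIP-seq the authors aligned with Bowtie 1.3.1 and called peaks on each library with MACS3 3.0.0b1 (q of 0.1), and the deposited lists give fold enrichment as a ratio, −log10 q, a score that was not used, and the summit offset. FPKM keeps no counts, so no counting interval is given.

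Here, log2 ratios were taken after adding 1 FPKM, for genes with 5 FPKM or more in either E8.5 library, and 3-fold or more was called. Of the per-sample columns, 0 were left out. The genes, the 28 gene lists and the alternatives were chosen with earlier results of these data known. Named were the 12 largest and 12 smallest ratios, the 12 highest genes listed at 0 in trunk notochord, called list genes with all sorting genes, notochord factors and signals, 3 genes either side of each limit and 5 opposite genes a side at E9.5. Symbols of small or unnamed transcripts were passed over, any other gene was named after its values were seen, and some genes that the rule takes are not reported here. Peak summits were measured to GENCODE starts, and sequences read from GRCm38. The code for the calls was tried on simulated data, with changes larger than 3-fold planted in genes at 20 FPKM or more and no added zeros. That setting cannot show how reliable the calls are in libraries of few cells. Tools were Python 3.11.15, numpy 2.4.6, pandas 2.3.3, matplotlib 3.10.9 and samtools 1.23.1.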

Additional observations from a re-analysis of the deposited data

Results flagged for a closer look

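The 9 genes below are given because their difference between trunk notochord and NotoPs went strongly the other way at E9.5, on the log2(FPKM + 1) scale. They are 5 of the 65 genes higher at E8.5 and 3-fold or more lower at E9.5, and 4 of the 41 lower and then higher, from among the most opposite of each. The 65 were 9.18% of the genes higher at E8.5, and 8.45% of all genes tested were lower at E9.5. The 41 were 6.06% of the genes lower at E8.5, and 4.97% of all genes tested were higher at E9.5. Both shares of opposite genes were thus near those of all genes tested. With 1 library at each point, the difference between the stages was not tested.

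Of the genes higher at E8.5, the pseudogene Rpl34-ps1 was listed at 0 in E9.5 trunk notochord and at 122.3 FPKM in E9.5 NotoPs. It shares sequence with Rpl34, and the sum of both was 155 and 428 FPKM at E9.5. The DNA repair gene Tdg had a ratio of -4.32 (0.00081 and 18.9 FPKM), after 44.6 and 10.6 FPKM at E8.5. The methyltransferase gene Vcpkmt, the pseudogene Pisd-ps2 and the nucleotide hydrolase gene Nudt1 were listed at 0 in E9.5 trunk notochord and were at 15.7, 11.7 and 10.3 FPKM in E9.5 NotoPs.

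Of the genes lower at E8.5, the homeobox gene Duxbl1 had an E9.5 log2 ratio of 4.14 (16.6 and 0.00011 FPKM). Paqr3 was at 3.77, the mitochondrial carboxylase gene Pcca at 3.09 (53.9 and 5.44 FPKM) and the autophagy receptor gene Tex264 at 3.02 (39.8 and 4.03 FPKM). Duxbl1, Paqr3 and Tex264 had been listed at 0 in E8.5 trunk notochord. Among the flagged genes, copies were summed for Rpl34-ps1 alone. Whether reads were divided between copies was not tested for the others, including Tdg and Duxbl1 with E9.5 values just above 0.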

How the results depend on the processing

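The 2 counts moved with the pseudocount, the minimum and the fold. With 5 FPKM added, 188 genes were higher and 260 lower. With at least 20 FPKM they were 176 and 238, at 2-fold 1377 and 1291, and at 5-fold 346 and 331. With at least 1 FPKM or with no minimum, 1098 genes were higher. Under the other alternatives (0.1 FPKM added, both rescalings, genes at 0 left out, NotoP at E9.5 as comparator, trunk notochord at E9.5) both counts stayed within 1.5 times, from 550 to 919 higher and from 484 to 959 lower. The rescaling factors were 1.0062 and 0.9676, too close to 1 to move any of the 178 named ratios by 1.5 times. With 0.1 FPKM added, 82 ratios moved further than that, and with 5 FPKM 117 did. Changing the added value cannot reverse a ratio. Genes listed at 0 numbered 22 with at least 20 FPKM in NotoPs. Within 50 kb, a T peak lay near 31.9% of genes higher and 38.3% of those lower, and a Foxa2 peak near 61.3% and 62.6%. The shares that recurred at E9.5 (21.0% of genes higher, 27.2% of those lower) were 23.4% and 21.9% with 5 FPKM added and 28.0% and 34.4% at 5-fold, the alternatives run for them. No paired analysis was possible because each condition has 1 library. The trunk library, with fewer reads and cells, limits low genes most.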
